A study of Bos taurus with 20 samples.

Results

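Phosphofructokinase catalyses the committed step of glycolysis, in which fructose 6-phosphate takes a further phosphate from ATP. Mammals build the enzyme as a tetramer from the products of a small gene family, namely PFKL (named for liver), PFKP (named for platelets) and PFKM (named for muscle). Most tissues mix the subunits, whereas adult skeletal muscle relies on PFKM, and loss of PFKM causes a muscle glycogen storage disease in people. The step is driven forward by fructose 2,6-bisphosphate, made by the bifunctional PFKFB enzymes, and is opposed by the fructose bisphosphatases FBP1 and FBP2.

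The 3 isoform genes were read from 3 of the 21475 gene probes of the array, which carry 14634 named genes, PFKL and PFKP by the name of their probe and PFKM by its description. PFKL and PFKP were chosen from the horn type comparisons described here, in which PFKL ranked 10 and PFKP 133 by p between polled and horned skin, and 12 and 6 between scurred and polled skin, among 15712 probes. Their horn type differences are therefore given as a description with no test, while PFKM, the pathway genes and the site comparison were tested.

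The RNA came from skin biopsies of cattle, taken through epidermis, dermis and dermal connective tissue where horns grow on the skull. There were 4 scurred animals (horn type Scur in the labels, with loose rudimentary horns; 3 males and 1 female), 4 polled animals (Poll, hornless; 1 male and 3 females) and 3 horned animals (Horn; 2 males and 1 female). Chips 1 to 4 each joined 1 scurred, 1 polled and 1 horned animal through 4 arrays of 2 dyes, and horned animal 2 served on chips 2 and 4. On chip 5 the horn site of scurred animal 2 and of polled animal 3 was set against skin from elsewhere on the skull of the same animal. The labels give no breed, age or treatment, and horn type is a visible trait of the animals, so no genotype is known here. On all 4 chips a scurred animal of one sex met a polled animal of the other. In whole biopsies, fewer cells of a type and less RNA per cell cannot be told apart.

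Each isoform was measured by 1 probe of 60 bases, printed as 2 spots per array, and the sequences are shown because they define which transcript was measured. They are given 5′ to 3′ as deposited, with capitals at the hexamers AATAAA and ATTAAA, the usual polyadenylation signals.
PFKL: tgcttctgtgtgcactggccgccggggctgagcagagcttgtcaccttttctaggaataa
PFKP: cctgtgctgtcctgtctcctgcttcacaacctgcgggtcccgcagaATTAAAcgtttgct
PFKM: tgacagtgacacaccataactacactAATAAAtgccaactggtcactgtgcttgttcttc
The longest run of bases shared by any pair of these probes, on either strand, was 7. PFKP held ATTAAA from base 47 and PFKM held AATAAA from base 27, and neither hexamer was found on the opposite strand of the 3 probes. Over both strands, AATAAA occurred in 15.2% and ATTAAA in 6.47% of all probes. The probes of PFKL and PFKP had 55% G and C and that of PFKM 41.7%. No genome was used, so the position of the probes in their genes is not given.

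All 3 probes were read well above background and none was saturated on any array. The level of a probe is given as log2 intensity, for which levels of different probes cannot be compared. Across arrays, 62.2% to 73.7% of spots were well above background. Skin identity was borne by the keratinocyte markers, of which 9 of 10 listed were on the array and all 9 were measured well above background in at least 3 animals. Scurred animal 1 was least like the rest, its correlations across probes averaging 0.923, where those of the 10 others averaged 0.949 to 0.965. The file headers give chip 1 a scan day of its own, and its 3 animals had the highest PFKL levels of their types. Between polled and horned skin 1 of 15712 probes passed an adjusted p of 0.05 in limma (0.00636%), with 1456 at an unadjusted p under 0.05. No probe passed between scurred and horned skin (0%), with 584 at an unadjusted p under 0.05, nor between scurred and polled skin (0%), with 942. No probe of 15290 passed between horn site and control site (0%), with 720 at an unadjusted p under 0.05.

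PFKL, the liver-type subunit found in many tissues, was lowest in the polled animal and highest in the horned animal on each of the 4 chips. The levels on chips 1 to 4 were 14.20, 13.25, 13.46 and 13.31 log2 units in the scurred animals and 13.60, 12.73, 13.01 and 12.87 in the polled animals. Horned animals 1, 2 and 3 stood at 14.21, 13.48 and 13.61. Across chips the groups overlapped, because polled animal 1 lay above scurred animals 2, 3 and 4, whereas within each chip the order was the same. That order, polled below scurred below horned on all 4 chips, was seen for 63 of 15712 probes (0.401%). PFKL was one of those the comparison had chosen, so nothing is read from its place among them.

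Polled minus horned differences in PFKL were −0.59, −0.79, −0.66 and −0.65 on the log2 scale on chips 1 to 4. The fitted difference, adjusted for sex, was −0.69 (SE 0.098, 4 polled and 3 horned animals), or 0.622 times the horned level. A lower polled value on all 4 chips was found for 13.1% of probes. The scurred minus polled differences were 0.50, 0.58, 0.47 and 0.47, and the fitted difference was 0.53 (SE 0.095), or 1.45 times the polled level. A higher scurred value on all 4 chips was found for 9.64% of probes. Scurred minus horned differences were smaller, at −0.10, −0.21, −0.18 and −0.18, with a fitted value of −0.15 (SE 0.093) and a 95% interval of −0.37 to 0.07, so this step of the order is within its error; it stood at −0.29 with median centring. A lower scurred than horned value on all 4 chips was found for 9.73% of probes.

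In PFKL, polled skin was lower than horned skin in both dye orders, on 8 of 8 arrays with log2 ratios from −0.91 to −0.44. These arrays are dye-swapped pairs of the same 4 chips, and the share of all probes lower on all 8 was not counted. Scurred skin was measured in 1 dye order against each other type, and was higher than polled skin on 4 of 4 arrays (0.29 to 0.47). Scurred over horned ratios lay close to 0 on single arrays, from −0.10 to 0.00, with 3 lower and 1 higher. By the sexes on a chip, polled minus horned PFKL was −0.65 with 2 females on chip 4. It was −0.59 and −0.66 with a polled female and a horned male, and −0.79 with a polled male and a horned female. No chip paired a polled male with a horned male. The male minus female term of the fit was −0.06 (SE 0.085, limma adjusted p 1).

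**Figure D1:**
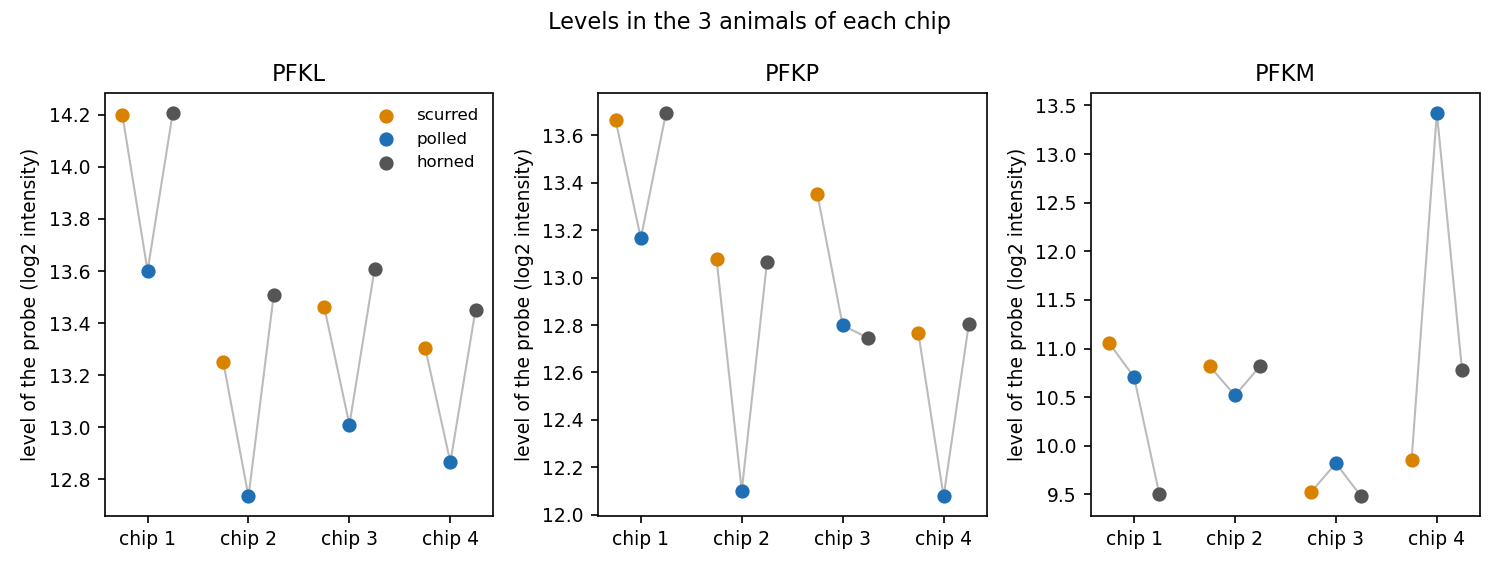
Level of each isoform's probe (log2 intensity, vertical axis) in the scurred, polled and horned animal of chips 1 to 4, joined by a grey line within a chip. PFKL runs in the same order on each chip and PFKP is lowest in the polled animal on 3 chips, while the PFKM level of polled animal 4 (13.42) lies far above the rest.

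PFKP, the platelet-type subunit, which many proliferating cells also use, shared the low polled level but not the even order. Its levels on chips 1 to 4 were 13.67, 13.08, 13.35 and 12.77 log2 units in the scurred animals and 13.17, 12.10, 12.80 and 12.08 in the polled animals. Horned animals 1, 2 and 3 stood at 13.70, 12.93 and 12.75. Polled animals 2 and 4 were the lowest of all 11, and polled animals 1 and 3 lay within the range of the other types.

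Polled minus horned differences in PFKP were −0.51, −0.90, −0.01 and −0.80, so chip 3 showed next to no difference, and there the single-channel levels were 12.80 in the polled and 12.75 in the horned animal. The fitted value was −0.61 (SE 0.143), and 7 of 8 arrays had a lower polled value. As for PFKL, the polled and horned arrays are dye-swapped pairs of the same 4 chips. Shares of all probes with such array counts were not counted, here or for scurred over polled skin. Scurred minus polled differences were 0.47, 1.04, 0.47 and 0.79, with a fitted value of 0.82 (SE 0.139), or 1.77 times the polled level, and 4 of 4 arrays higher. Being lower in polled than in horned skin and higher in scurred than in polled skin on all 4 chips was shared by 639 probes (4.07%), PFKL and PFKP among them. Scurred minus horned differences had no common sign, at −0.04, 0.13, 0.46 and −0.01, and the fitted value of 0.21 (SE 0.136) had a 95% interval of −0.11 to 0.54. It stood at 0.33 without chip 1, 0.08 without chip 3, 0.08 with median centring and 0.09 with no replicate block. The male minus female term was −0.27 (SE 0.124, limma adjusted p 1).

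PFKL and PFKP differed in how even they were. The standard deviation of the polled minus horned differences over the 4 chips was 0.084 for PFKL and 0.402 for PFKP, and that of the scurred minus polled differences 0.051 and 0.275. The smaller spread of PFKL belongs to the values it was chosen by. The comparisons share the polled or the horned animals, so their values are not independent of each other.

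PFKM, the muscle-type subunit, spread widely among the animals of a horn type. Its levels on chips 1 to 4 were 11.06, 10.82, 9.52 and 9.86 log2 units in the scurred animals and 10.71, 10.52, 9.82 and 13.42 in the polled animals. Horned animals 1, 2 and 3 stood at 9.5, 10.80 and 9.48. The 3 groups overlapped, and polled animal 4 was the highest of all by more than 2 log2 units.

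PFKM differences between polled and horned skin were 1.21, −0.29, 0.30 and 2.53, with a fitted value of 0.75 (SE 0.737; 95% interval −0.98 to 2.49; limma adjusted p 0.781). Scurred minus horned differences were 1.59, −0.02, 0.04 and −0.98, with a fitted value of 0.30 (SE 0.701; interval −1.35 to 1.95; adjusted p 1). Scurred minus polled differences were 0.39, 0.28, −0.26 and −3.51, with a fitted value of −0.46 (SE 0.715; interval −2.14 to 1.23; adjusted p 0.956). None of these passed, and each interval spans about 1 log2 unit or more on either side of 0. The scurred minus polled value was 0.24 without chip 4 and 0.11 without polled animal 4. The scurred minus horned value was −0.16 without chip 1 and −0.23 without scurred animal 1. The polled minus horned value went down to 0.24 and up to 1.43 when a chip or an animal was left out.

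**Figure D2:**
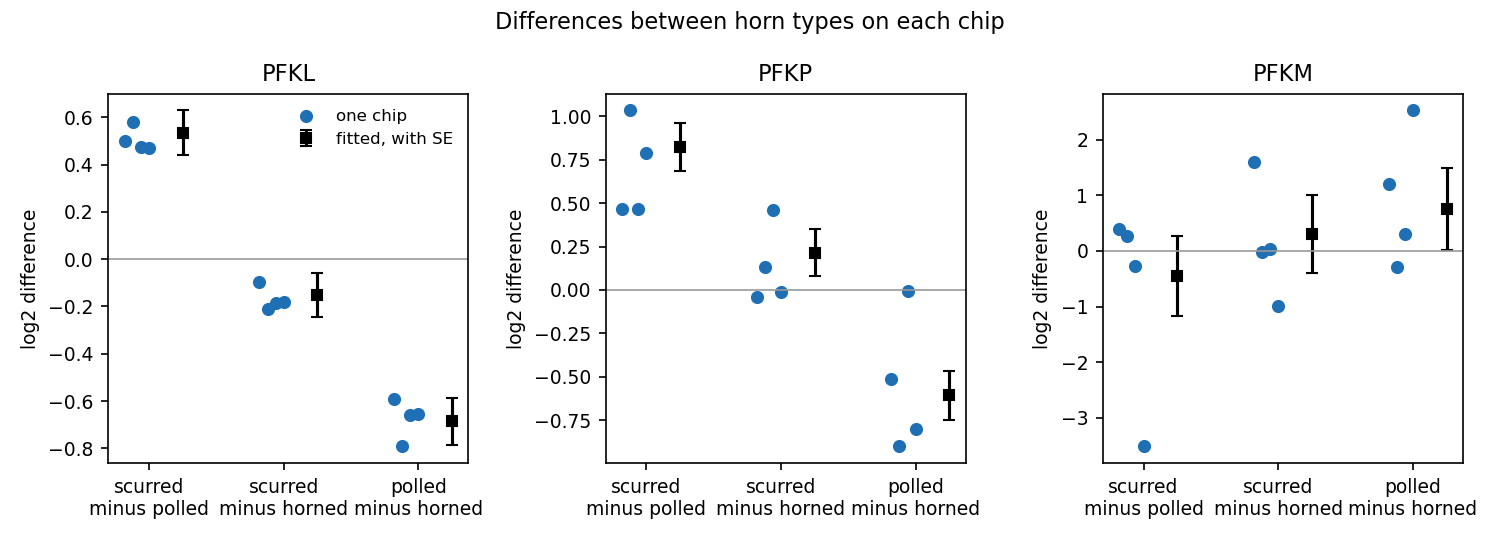
Log2 differences between horn types for PFKL, PFKP and PFKM, with a separate vertical scale for each gene. Blue points are chips 1 to 4 from left to right and black squares the fitted value with its SE; PFKL points lie close together, and PFKM points spread on both sides of 0 in all 3 comparisons.

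The horn site did not differ from control skull skin in any isoform past the threshold, with 2 animals measured. In scurred animal 2, PFKL stood 0.45 higher at the horn site (0.37 and 0.53 on its 2 arrays), and in polled animal 3 it stood at −0.19 (−0.37 and −0.02). PFKP was at 0.83 in the scurred animal (0.72 and 0.94) and at −0.23 in the polled animal (−0.37 and −0.08). PFKM was at 0.21 (0.30 and 0.13) and at 0.03 (0.04 and 0.01). Each array of the scurred animal was above 0 for all 3 genes, and each array of the polled animal was below 0 for PFKL and PFKP. Means over both animals were 0.13 for PFKL (SE 0.213, limma adjusted p 0.998), 0.30 for PFKP (SE 0.316, adjusted p 0.989) and 0.12 for PFKM (SE 0.126, adjusted p 0.989), and each mean lay below 0 with arrays centred on their median in place of loess. That centring moved the median of all probes to −0.15, against −0.01 with loess.

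**Figure D3:**
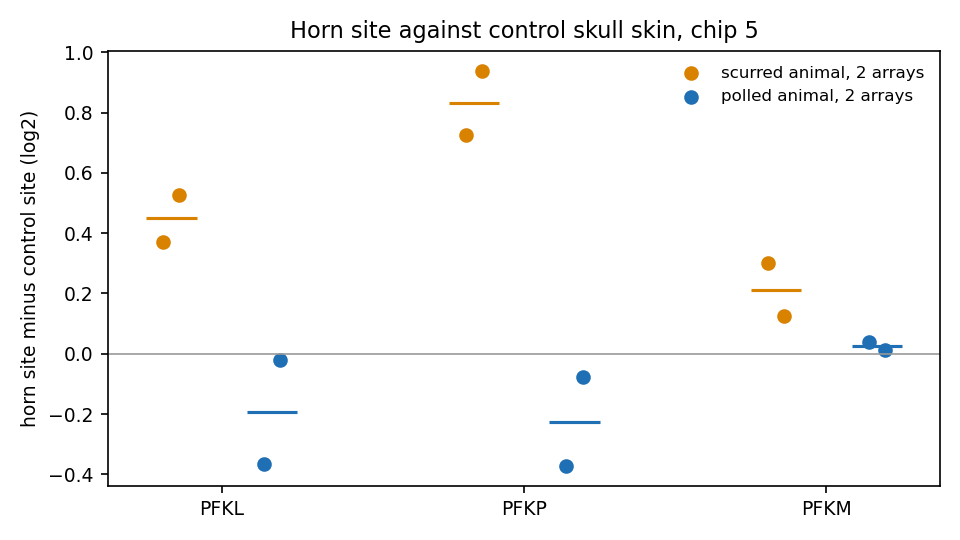
Horn site minus control site on the log2 scale for the 3 isoforms on chip 5, in scurred animal 2 (orange) and polled animal 3 (blue), with 1 point per array and a bar at their mean. The animals lie on opposite sides of 0 for PFKL and PFKP.

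The genes that set the activity of phosphofructokinase from outside, or run its step backwards, had fitted values above 0 against horned skin. This held in both polled and scurred skin, and none of them passed. All 6 measured genes of 7 listed were above 0 in each. The median was 0.74 for polled and 0.40 for scurred skin, against 0.01 over all probes tested in either comparison. By chip, the list median against the horned animal was 0.44, 0.91, 0.48 and 0.48 in the polled animals. In the scurred animals it was 0.90, 0.62, 0.01 and −0.32. FBP1, the fructose bisphosphatase of liver and kidney, had the highest polled minus horned value at 2.15 (SE 0.972, limma adjusted p 0.558), with −0.39, 3.87, 3.05 and 2.04 on chips 1 to 4. FBP2, the muscle bisphosphatase, stood at 1.49 (SE 0.996, adjusted p 0.657), with 1.47, 0.61, 0.26 and 4.43, so polled animal 4 was again the highest. The bifunctional enzymes PFKFB4, PFKFB2 and PFKFB3 stood at 0.90 (SE 0.453), 0.58 (SE 0.354) and 0.58 (SE 0.456), with adjusted p from 0.572 to 0.713. TIGAR, a bisphosphatase that lowers fructose 2,6-bisphosphate, stood at 0.19 (SE 0.189, adjusted p 0.788) and PFKFB1 was well above background in 2 animals, too few to be tested. In scurred minus polled skin 5 of the 6 were below 0, with a median of −0.35 against −0.01 over all probes, and none passed.

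Glycolysis above and below the phosphofructokinase step showed no call either. The step above held 5 measured genes of 6 listed, the hexokinases and GPI, the isomerase that makes fructose 6-phosphate. Their polled minus horned median was 0.29, with HKDC1 highest at 0.90 (SE 0.767), GPI at 0.34 (SE 0.397) and HK3 at 0.29 (SE 0.307). HK1, the hexokinase of most tissues, stood at 0.00 (SE 0.2). All 5 lay at or above 0, where PFKL and PFKP lay below it.

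Of 19 listed genes below the step 15 were measured, 7 higher and 8 lower in polled than in horned skin, with a median of −0.01. The 3 highest were PGAM2, the muscle phosphoglycerate mutase, at 1.50 (SE 0.915), ENO3, the muscle enolase, at 1.0 (SE 0.864), and ALDOA, the aldolase of muscle and many other tissues, at 0.78 (SE 0.362). Among the lowest were ALDOC, the brain aldolase, at −0.35 (SE 0.266), and PKM, a pyruvate kinase, at −0.24 (SE 0.394). Adjusted p for these 5 ran from 0.567 to 0.882. Scurred minus polled differences had a median of 0.21, with 9 genes higher, 6 lower and none called.

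In polled minus horned skin the medians of neighbouring routes of sugar use, and of the hypoxia response, stayed close to 0. Single genes lay farther out. Glucose and lactate carriers had a polled minus horned median of 0.04 over 8 measured genes, from −0.22 for BSG, the chaperone of lactate carriers, to 0.24 for SLC2A1, the general glucose carrier. Next to these were SLC2A4, the insulin-responsive carrier, at 0.23, SLC2A5, the fructose carrier, at 0.11, SLC16A1, a lactate carrier, at −0.13, and SLC16A7, another, at −0.10. The pentose phosphate pathway had a median of 0.10 over 7 genes and the hypoxia response, which can drive glycolytic genes, 0.16 over 10. Single genes of the hypoxia response ran from −0.36 to 0.80. Glycogen genes had a median of 0.13, with all 9 measured above 0, GYG1, the glycogenin primer, among the highest at 0.55 (SE 0.527). None of these genes passed in any of the horn type comparisons.

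**Figure D4:**
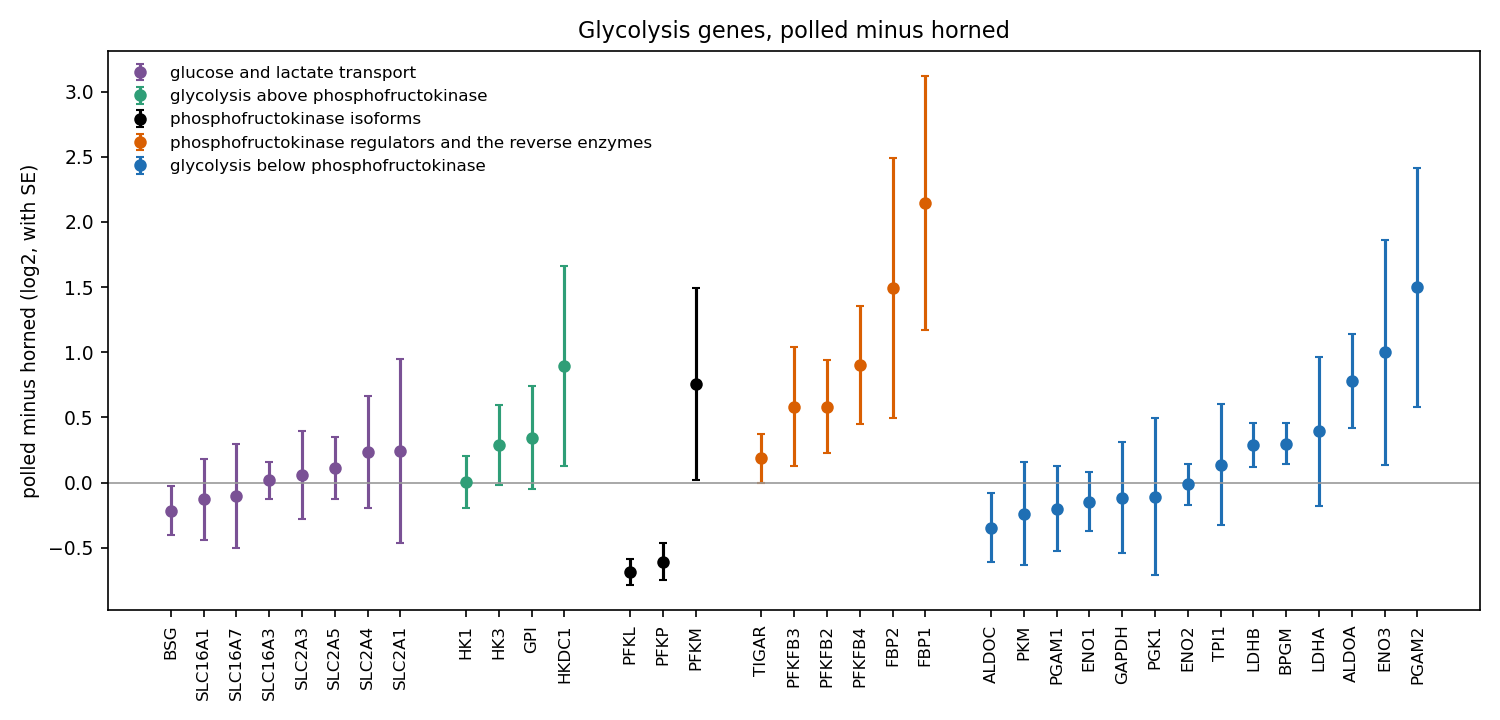
Polled minus horned differences (log2, with SE) of measured glycolysis genes, sorted within each group, with the 3 isoforms in black. PFKL and PFKP have short error bars below 0, and PFKM, FBP2, ENO3 and PGAM2 have long ones above 0.

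The genes whose pattern was most like that of each isoform were taken by Pearson's r over 12 values, 1 for each animal on each of chips 1 to 4 after centring by chip, among 12484 named genes. These values share animals and chips, and they hold the horn type differences from which PFKL and PFKP were chosen. Genes with like differences therefore rank high beside those 2, and r is given only as a description. For PFKL the closest was AIF1, a calcium-binding protein of macrophages, at 0.986, followed by HYCC1 (0.967), LRRC25 (0.963), DDC, the aromatic amino acid decarboxylase (0.956), and TRIM16 (0.952). AIF1 was also the 1 probe called between polled and horned skin, at −1.71 (SE 0.115, limma adjusted p 0.02), with −1.59, −1.72, −1.73 and −1.77 on the 4 chips. That call held in 2 of 12 fits with a chip or an animal left out (adjusted p 0.0255 to 1) and under 6 of 10 other settings (0.00203 to 0.284). For PFKP the closest were CIB2 (0.955), ACCS (0.946), COL6A1, a collagen VI chain (0.940), GNAI2, an inhibitory G protein subunit (0.925), and CAPN2, a calpain (0.923). PFKL and PFKP correlated with each other at 0.820, at which PFKP ranked 200 among genes like PFKL, and PFKL ranked 126 among genes like PFKP.

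Among the closest to PFKM were SLC20A2, a phosphate carrier (0.991), SRL, a sarcoplasmic reticulum protein (0.976), PDLIM3, a protein of the muscle Z-disc (0.966), and FITM1, a lipid storage protein of muscle (0.955). PFKM correlated at −0.439 with PFKL and at −0.487 with PFKP. Its r with FBP2 was 0.936, with ENO3 0.919 and with PGAM2 0.877. With the 9 glycogen genes its median r was 0.835, and the lowest was −0.161 for PYGB, the brain phosphorylase. After centring, the highest and lowest PFKM values were those of polled animal 4 (2.01) and scurred animal 4 (−1.50). Chip 4 therefore weighs most in all r values of PFKM.

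Markers of skeletal muscle, 13 of 16 listed being on the array and measured, moved with PFKM. Their median r with PFKM was 0.781 (0.498 to 0.897, highest for CKM, muscle creatine kinase), against −0.411 with PFKL and −0.263 with PFKP. Keratinocyte markers also went with PFKM, at a median r of 0.675 over 9 genes (0.370 to 0.709). Chip 4 weighs most in these r values too. Summed intensity of skeletal muscle markers ran from 19280 to 218000 in scurred, 20680 to 961900 in polled and 3027 to 195600 in horned animals. All 13 were above background in at least 3 animals. Against the horned animal of the chip, the median of the muscle list was 2.83, −0.02, 1.18 and −2.50 in the scurred animals. It was 3.74, −1.0, 1.13 and 2.20 in the polled animals. PFKM was above 0 in polled animals 1, 3 and 4, as was the list, and below 0 in scurred animal 4, where the list was lowest. All 13 were above 0 in the polled minus horned fit (median 1.35) and in the scurred minus horned fit (median 0.85), none passing. At the horn site 11 of 11 measured muscle markers stood above the control site (median 2.61), none passing, where PFKM stood at 0.12. The part of muscle in the PFKM values was not tested.

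Markers of macrophages and fibroblasts, like PFKL and PFKP, had lower fitted values in polled skin than in horned or scurred skin. All 8 macrophage markers stood below 0 in polled minus horned skin (median −0.86, 1 called) and above 0 in scurred minus polled skin (median 1.04, none called). AIF1 and C1QB, a complement subunit of macrophages, were lowest between polled and horned skin, at −1.71 and −1.42, and CSF1R, the receptor of a macrophage growth factor, was nearest to 0 at −0.17. All 6 fibroblast markers did likewise, with medians of −1.19 and 1.23 and none called, led by the collagen chain COL3A1 at −1.57 (SE 0.749). COL3A1 was uneven between polled and horned animals, at −2.11, −3.05, 0.35 and −0.17 on chips 1 to 4. The fibroblast list had polled medians of −0.63, −2.14, −0.40 and −0.22 there, lowest on chip 2. Median r with the macrophage list was 0.638 for PFKL and 0.794 for PFKP, and with the fibroblast list 0.647 and 0.718. These r values hold the differences from which PFKL and PFKP were chosen, so nothing is read from their height. Among scurred animals, both list medians against the horned animal were lowest in animal 1 (−0.94 and −1.24). There PFKL was at its highest of the scurred animals (−0.10) and PFKP at its lowest (−0.04). Summed macrophage intensity ran from 50480 to 116300 in scurred, 24680 to 81490 in polled and 46620 to 125800 in horned animals. Summed fibroblast intensity ran from 142800 to 398300, 85450 to 252500 and 292200 to 331900 in the same order of types.

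On chip 3 PFKL and the macrophage list lay on opposite sides of 0. There the list had a median of 0.76 in the polled animal against the horned one, and PFKL stood at −0.66, PFKP at −0.01 and AIF1 at −1.73. On chips 1, 2 and 4 the list was at −1.68, −1.07 and −0.94 in the polled animals. Scurred animals had list medians of −0.94, −0.05, 1.40 and 0.29 beside PFKL values from −0.21 to −0.10. Keratinocyte markers had all 9 genes above 0 in polled minus horned skin (median 2.06) and a median r of −0.567 with PFKL and −0.420 with PFKP. In scurred minus horned skin all 9 were above 0 as well (median 2.23), and in scurred minus polled skin 3 were higher and 6 lower (median −0.32), with none called. Their summed intensity ran from 28320 to 969900 in scurred, 89030 to 431300 in polled and 29110 to 62720 in horned animals. Platelet markers, the cells PFKP is named for, had 3 of 6 on the array and 2 measured, at a median of 0.00. Other polled minus horned medians were 2.03 for 4 red cell, 0.53 for 6 lymphocyte, −0.62 for 5 smooth muscle, −0.21 for 5 endothelial and −0.16 for 3 adipocyte markers, with none called. The part of any of these cell types in the PFKL and PFKP values was not tested.

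**Figure D5:**
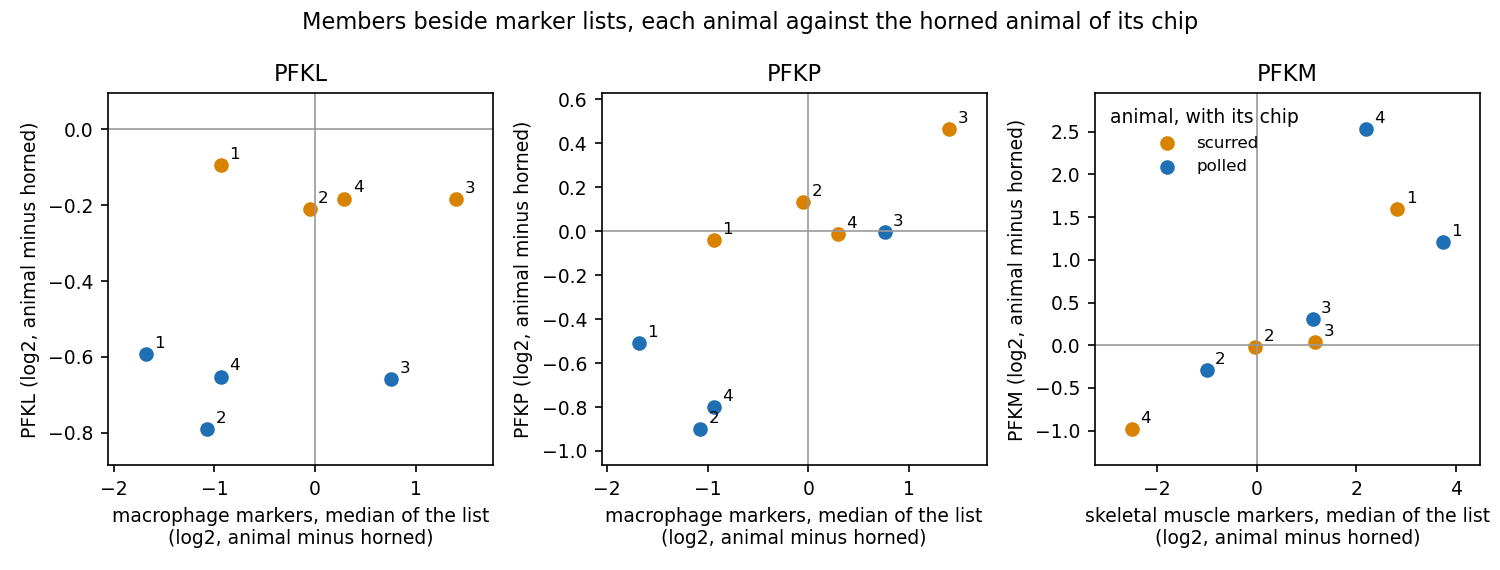
Isoform difference from the horned animal of the chip (vertical, log2) beside the median of a marker list in the same animal (horizontal, log2), with numbers giving the chip, for 4 scurred (orange) and 4 polled (blue) animals. The macrophage median of the scurred animals runs from −0.94 to 1.40 and that of the polled animals from −1.68 to 0.76, and PFKM is lowest and highest in animals with a low and a high skeletal muscle median.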

How the data were processed

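Spot brightness in either dye was taken as the mean intensity of the deposited scanner files, which the submitters' processing notes credit to Agilent Feature Extraction 9.5.1. The authors' deposited table of log10 ratios, used as an alternative, rests on signals that had been background subtracted and dye normalized, per the file headers. It followed the scanner files with a slope of 1 in 14 columns and of −1 in 6, and its column medians lay between −0.019 and 0.00929.

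Background was corrected by normexp with an offset of 50, and arrays were normalized internally by loess (limma 3.58.1 under R 4.3.3, with the package data.table in version 1.17.8). Flagged spots were left out and duplicate spots averaged. Of 21475 probes, 16241 had a gene symbol, looked up in the RefSeq table of ARS-UCD2.0 (10098 by gene identifier); for a gene with several probes the brightest was used. Probes well above background in at least 3 of 11 animals (15712), or 2 of 4 RNAs of chip 5 (15290), were tested.

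Arrays of chips 1 to 4 were reduced to 8 differences from the horned animal of the chip, with a dye coefficient. These entered 1 generalized least squares fit with polled, scurred and sex terms, 5 residual degrees of freedom and limma's moderated two-sided test, with Benjamini-Hochberg adjustment over the whole array. Levels and differences by chip are not adjusted for sex. The chip thus acts as a replicate block; deviations of the scurred and polled animal of a chip correlated at 0.237, 0.288, 0.423 and −0.083 across probes. The site test set the mean of 2 animals against 0. The fit was tested on simulated data. p-values measure the spread between these animals, whose number limits the precision.

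The members and gene lists were chosen with earlier results of these data known. Named are the members, each list's called genes and its 3 highest and 3 lowest by polled minus horned (not printed for each list), and the 5 genes most like each member; a few of these are not reported here. Alternatives were the background correction, normalization, signals, filter, sex term, block, covariance and left-out chips or animals; leaving out single polled or scurred animals, other than scurred animal 1, was added after the data were seen.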

Additional observations from a re-analysis of the deposited data

Results flagged for a closer look

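PFKM in scurred minus polled skin had 1 chip far from the other 3. Chip 4 stood at −3.51 on the log2 scale against −0.26 to 0.39 on the rest, a gap of 0.833 of the whole range, just past Dixon's 95% limit for 4 values. Chance alone marks about 1 in 20 such groups. The limit was applied to each horn type comparison of each isoform and to its levels in polled and in scurred animals. Only this group passed it. Polled animal 4, which also had the highest PFKM and FBP2 values, is 1 of the 2 animals in that difference, and the cause was not tested.

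At the horn site, PFKL and PFKP stood on opposite sides of 0 in the 2 animals of chip 5, and this difference was not tested. PFKL stood at 0.45 in scurred animal 2 and at −0.19 in polled animal 3. PFKP stood at 0.83 in scurred animal 2 and at −0.23 in polled animal 3.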

How the results depend on the processing

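PFKL and PFKP kept the sign of their polled minus horned and scurred minus polled differences under all 10 other settings and in all 12 fits that left out a chip or an animal. Both genes were chosen from these comparisons, so nothing is read from the kept signs. PFKL ran from −0.86 to −0.66 and PFKP from −0.76 to −0.51 between polled and horned skin over the settings. With median centring in place of loess, PFKL stood at −0.86 in polled minus horned and −0.29 in scurred minus horned skin, and the site means turned to −0.25 for PFKL, −0.066 for PFKP and −0.14 for PFKM. With no replicate block, PFKL stood at −0.22 in scurred minus horned and 0.44 in scurred minus polled skin. Leaving out a chip or an animal, scurred minus polled ran from 0.47 to 0.58 for PFKL and from −1.29 to 0.24 for PFKM, and scurred minus horned PFKM from −0.23 to 0.54. Those that turned PFKM were chip 1 (−0.16) and scurred animal 1 (−0.23) for scurred minus horned, and chip 4 (0.24) and polled animal 4 (0.11) for scurred minus polled. With 1 animal at a time, the site values ran from −0.19 to 0.45 for PFKL and from −0.23 to 0.83 for PFKP. Probes called numbered 0 to 4 between polled and horned, 0 to 1 between scurred and horned and 0 to 2 between scurred and polled skin. PFKP in scurred minus horned skin ran from 0.08 to 0.21 over the settings and from 0.08 to 0.33 with a chip or an animal left out. The 3 probes were well above background throughout.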
